A study of Homo sapiens with 40 samples.

Results

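The replication-dependent histone genes were followed in cultures of MDA-MB-231, an established human line of breast cancer cells that lacks the estrogen and progesterone receptors, through 6 drug treatments and their mock-treated controls. All single-gene probe sets were taken whose symbol is H1-1 to H1-6 or begins with H2AC, H2BC, H3C or H4C, which gave 58 genes of the 18417 named genes on the array. The members were chosen by symbol alone, but the list itself was picked from earlier results, in which H2BC14 and other histone genes were seen to be low after 30 µM zoledronate for 48 h. The values of that comparison are therefore given as a description without a test. The 58 genes comprise 6 H1, 14 H2A, 17 H2B, 8 H3 and 13 H4 genes, and 49 of them lie on chromosome 6, 8 on chromosome 1 and 1 on chromosome 12. H4C14 and H4C15 carry identical deposited values, so that 57 signals are distinct.

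Zoledronate is a bisphosphonate that blocks farnesyl diphosphate synthase of the mevalonate pathway, and fluvastatin is a statin that blocks the pathway further upstream, at HMG-CoA reductase. In lot I, cells received 30 µM zoledronate, 2 µM fluvastatin or the solvent alone, each for 12 h or 24 h. In lot II, they received 100 µM zoledronate or the solvent for 24 h, and 30 µM zoledronate or the solvent for 48 h. Each of the 10 groups held 4 arrays, described as independent replicates of subconfluent cultures, and treated and control arrays of 1 lot, time and replicate number form a pair that shares the day of measurement. All values are log2 signals, and every difference is treated minus control, in the log2 scale.

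Replication-dependent histone genes supply the core histones H2A, H2B, H3 and H4 and the linker H1 that package new DNA. They are transcribed almost only in S phase, in nuclear bodies organised by NPAT, and their mRNAs end in a stem-loop bound by SLBP instead of a poly(A) tail. When DNA synthesis stops, these mRNAs are degraded quickly, with help from UPF1 and the exonuclease ERI1. The replacement histones, such as H2AZ1 and H3-3B, are made throughout the cell cycle from ordinary polyadenylated mRNAs.

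The sequences before the starts of 4 H2B genes are shown because these members differed in their mean response. H2BC14 and H2BC3 had the lowest differences of the 17 H2B genes under 100 µM zoledronate. By their single-gene probe sets, H2BC12 was the member that rose under fluvastatin. H2BC21 was not called lower under 100 µM zoledronate, with pairs that disagreed in sign. Probe sets shared with other genes stood at −0.28 for H2BC12 under fluvastatin for 24 h. For H2BC21 they stood at −0.25 and −0.21 under 100 µM zoledronate. Each line gives the 250 bases before the annotated start, 5′ to 3′ on the gene's strand, from RefSeq (build GRCh38.p14). Capitals mark the octamer ATTTGCAT, which is known to bind POU2F1 in H2B promoters, the CCAAT box and the TATA motif TATAAA, each on either strand and with overlapping matches joined. They lie at chr6:27814772-27815021 (plus strand), chr6:26043714-26043963 (minus), chr6:27146856-27147105 (minus, the entry with more matches of the 2 listed) and chr1:149886683-149886932 (minus), in this order.
H2BC14: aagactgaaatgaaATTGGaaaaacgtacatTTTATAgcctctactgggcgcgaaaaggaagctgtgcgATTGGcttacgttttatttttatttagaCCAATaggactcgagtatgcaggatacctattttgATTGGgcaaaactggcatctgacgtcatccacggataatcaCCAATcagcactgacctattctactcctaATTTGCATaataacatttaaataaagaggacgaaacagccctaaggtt
H2BC3: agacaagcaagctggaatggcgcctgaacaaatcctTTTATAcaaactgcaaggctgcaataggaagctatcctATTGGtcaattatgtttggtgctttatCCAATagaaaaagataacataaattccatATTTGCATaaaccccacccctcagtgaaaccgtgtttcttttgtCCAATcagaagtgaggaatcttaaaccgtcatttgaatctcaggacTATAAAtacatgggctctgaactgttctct
H2BC12: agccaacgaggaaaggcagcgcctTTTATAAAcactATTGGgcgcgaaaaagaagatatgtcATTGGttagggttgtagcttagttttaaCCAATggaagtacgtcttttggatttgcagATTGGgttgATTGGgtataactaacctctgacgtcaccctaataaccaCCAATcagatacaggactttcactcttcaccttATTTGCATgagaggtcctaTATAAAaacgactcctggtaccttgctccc
H2BC21: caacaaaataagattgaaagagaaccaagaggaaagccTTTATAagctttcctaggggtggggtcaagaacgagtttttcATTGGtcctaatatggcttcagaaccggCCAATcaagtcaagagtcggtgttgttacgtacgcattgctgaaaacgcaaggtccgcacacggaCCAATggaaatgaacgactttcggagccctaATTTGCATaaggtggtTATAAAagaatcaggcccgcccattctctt

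All 4 promoters hold the octamer, at 48, 120, 49 and 46 bases before the start in the order shown. The TATA motif stands 30 bases before the start in H2BC3, H2BC12 and H2BC21, while the only match in H2BC14 is on the other strand. Of the 58 members 52 have a promoter in the table. The octamer occurred in 23 of the 52 (44.2%), against 1.63% of all 35116 promoters, the CCAAT box in 44 (84.6%, against 32%) and TATAAA in 34 (65.4%, against 10.7%). In 9 pairs of H2A and H2B members the starts lie 215 to 248 bases apart. Largely the same bases were scanned for both partners, so 1 site could count for both genes. Among H2B genes 13 of 16 held the octamer, and H2BC5, H2BC13 and H2BC26 did not. Under 100 µM zoledronate the median difference of the 13 was −0.35, with 9 called lower, and that of the other 3 was −0.24, with 1 called lower.

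The named cell line was checked by its markers. VIM, CD44, ANXA1, MSN, CAV1 and AXL, its mesenchymal markers, lay between the 96.1 and 99.5 percentiles of single-gene probe sets. The 9 luminal markers were mixed: CDH1, PGR and ESR1 lay between 16.1 and 19.2, GATA3, FOXA1, ERBB2 and EPCAM between 40.7 and 68.4, and KRT8 and KRT18 at 98.4 and 98.9. The blood cell markers PTPRC, CD3E, HBB and CD14 lay between 3.46 and 36.4. Of the fibroblast and endothelial markers, DCN, CDH5, PECAM1 and PDGFRB lay between 3.57 and 36.2, and COL1A1 at 55.2. Array medians spanned 6.19 to 6.33, and the number of arrays limits the precision. Members had mean levels between 2.81 and 12.80, and 20 of the 58 lay below 5.12, the 33rd percentile of all probe sets; no filter was applied, so that all 58 were tested. One pair stood apart for the histone genes, replicate 2 of the 30 µM, 48 h group and its control. In the treated array the median member lay 0.50 below its mean over all arrays, against 0.12 to 0.21 below in the other 3 arrays of that group. In the control it lay 0.31 above, against 0.10 to 0.19 above in the other 3 controls at 48 h. Values of the 30 µM, 48 h group are given with this pair and, for the medians and named genes, also without it.

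Under 100 µM zoledronate for 24 h, 39 of the 58 histone genes fell and none rose (limma, Benjamini-Hochberg adjusted p under 0.05 over 19460 probe sets). Over all probe sets 16.4% were called lower and 15.2% higher, against 67.2% and 0% of the members. The fall covered all 5 types, with 2 of 6 H1, 12 of 14 H2A, 10 of 17 H2B, 7 of 8 H3 and 8 of 13 H4 genes called lower. The median member differed by −0.47, against 0.01 for all probe sets, and in the 4 pairs the median member stood at −0.31, −0.52, −0.49 and −0.49. The median was below 0 in all 4 pairs and least low in pair 1, and 40 of 58 members were lower in 4 of 4 pairs, against 23.3% of all probe sets. In whole cultures, fewer cells in S phase and less histone mRNA per cell cannot be told apart.

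H2BC14, an H2B gene of the large cluster on chromosome 6, fell furthest. Its values were 8.96, 8.57, 8.49 and 8.42 in the 4 arrays under 100 µM zoledronate, against 10.25, 10.15, 10.11 and 10.26 in their controls. The groups were far apart, and the difference was −1.58 ± 0.17 (SE, adjusted p = 1.8e-07), so that the signal stood at 33.4% of control. H2BC3, a further H2B gene, had 8.15, 7.76, 7.96 and 8.04 under zoledronate and 8.95, 9.18, 9.03 and 9.15 in controls (−1.10 ± 0.22, adjusted p = 0.00034). H4C2, an H4 gene, had 10.31, 10.39, 10.35 and 10.10 under zoledronate and 11.17, 11.40, 11.44 and 11.43 in controls, again without overlap (−1.07 ± 0.14, adjusted p = 1.7e-06). H2AC12, an H2A gene, differed by −0.99 ± 0.14 (adjusted p = 4.3e-06), with 6.58, 6.13, 6.38 and 6.37 in treated and 7.31, 7.20, 7.36 and 7.53 in control arrays. In all 4 of these genes each treated array lay below every control. They were named for a small adjusted p or a large difference, so this is no separate support. For the H3 genes, H3C12 showed the largest fall, at −1.30 ± 0.20 (adjusted p = 1.9e-05). Its values were 7.43, 6.99, 7.01 and 7.14 under zoledronate and 8.42, 8.42, 8.44 and 8.47 in controls, with a wide gap between the groups. H2AC20, a further H2A gene, differed by −0.48 ± 0.07 (adjusted p = 1.7e-05).

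**Figure D1:**
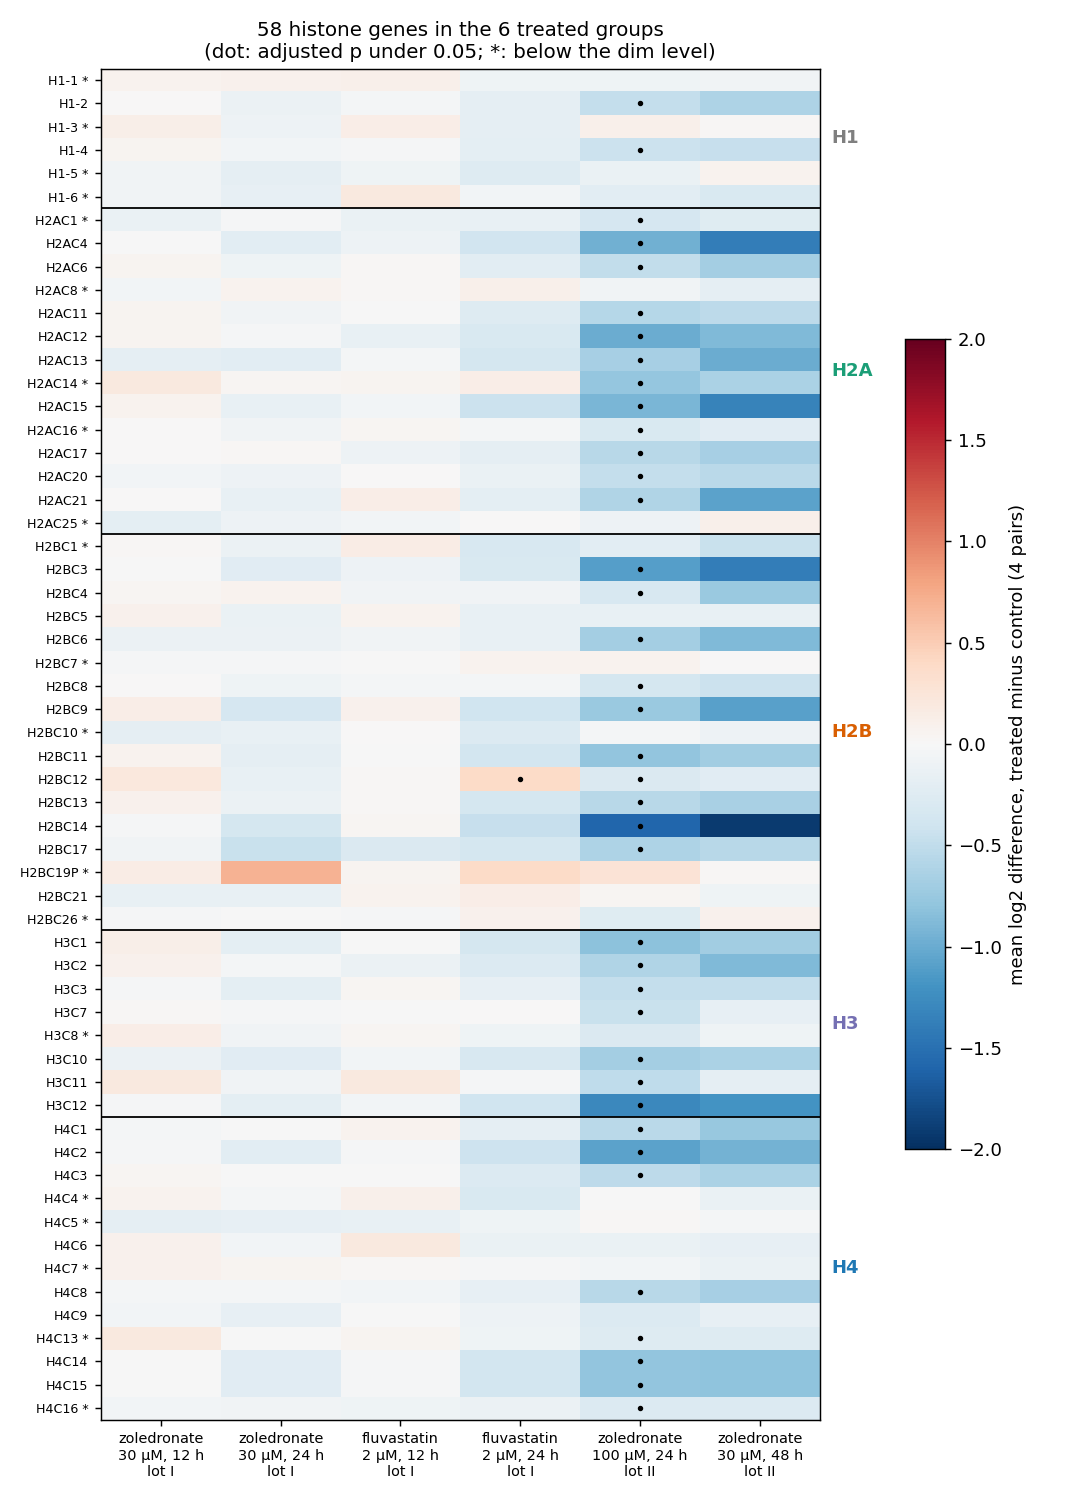
Mean log2 difference, treated minus control, of each of the 58 histone genes (rows, by type) in the 6 treated groups (columns), with blue for lower and red for higher. Dots mark adjusted p under 0.05 in the 5 tested comparisons and asterisks the 20 dim members; the 2 lot II columns on the right are blue down most rows, with H2BC14 the darkest at −1.58 and −1.91.

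The linker genes divided. H1-2 fell by 0.47 ± 0.09 (SE, adjusted p = 0.00032) and H1-4 by 0.43 ± 0.10 (adjusted p = 0.0019). H1-2 had 9.71, 9.40, 9.63 and 9.52 under 100 µM zoledronate, below all controls at 9.98, 9.99, 10.03 and 10.14. H1-1, H1-3, H1-5 and the testis form H1-6 did not pass, with differences of −0.08, 0.10, −0.13 and −0.21. All 4 were among the dim members. Of the 20 dim members 5 were called lower (median −0.12) and of the 38 brighter ones 34 (median −0.57).

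Only 4 of the brighter members were not called: H2BC5, H2BC21, H4C6 and H4C9. H2BC21, an H2B gene on chromosome 1 that also gives polyadenylated mRNA in non-dividing cells, read 7.84, 7.48, 7.48 and 7.12 under 100 µM zoledronate and 7.26, 7.25, 7.61 and 7.62 in controls. The groups overlapped fully, with a difference of 0.04 and a 95% interval of −0.29 to 0.37. That interval rests on the variance common to all groups of the fit. The gene's own pairs were wider apart, at 0.58, 0.22, −0.13 and −0.50 (SD 0.46). They lay on both sides of the H2B median of −0.32, so a fall of that size was not excluded for H2BC21. H2BC5 differed by −0.15 (−0.34 to 0.03), H4C6 by −0.13 (−0.29 to 0.02) and H4C9 by −0.28 (−0.51 to −0.04, adjusted p = 0.074). Of the germ cell forms, all of them dim members, H2AC1 fell (−0.33 ± 0.09, adjusted p = 0.0041) and H2BC1 stood at −0.20. Of the 6 members known to give polyadenylated mRNA, H1-2, H2AC6, H2BC4 and H2BC12 fell, by 0.47, 0.49, 0.32 and 0.30 on the log2 scale, and H2BC5 and H2BC21 did not pass. The H2BC12 call (adjusted p = 0.024) was lost without the pairing (adjusted p = 0.15 in limma), after quantile normalization anew (0.070), and without replicate 2 (0.19) or 3 (0.10). Near-identical paralogs can share probe signal, so that a value may belong in part to a neighbour, and the split between close copies is uncertain.

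**Figure D2:**
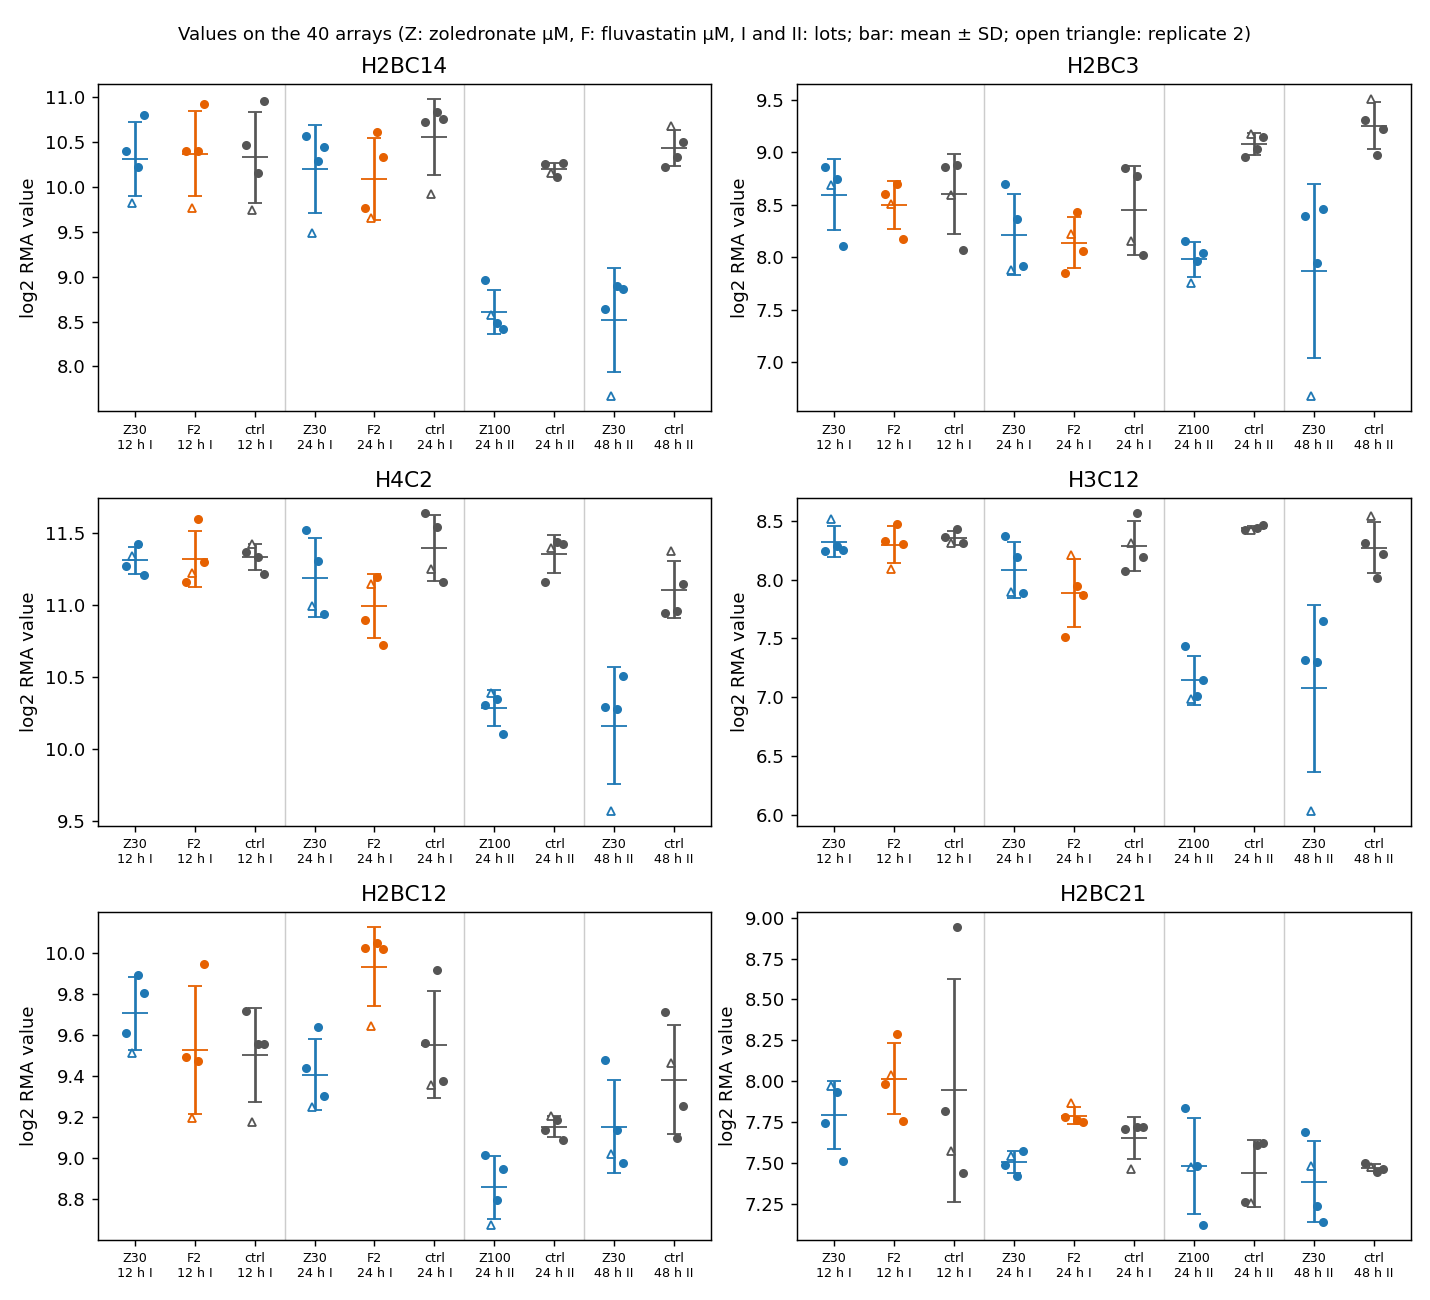
Log2 RMA values of 6 histone genes on all 40 arrays, by group, with mean ± SD (n = 4); treated groups (blue zoledronate, orange fluvastatin) stand left of their control (grey) and open triangles are replicate 2. H2BC14, H2BC3, H4C2 and H3C12 lie below their controls in both lot II treatments, H2BC12 is highest under fluvastatin at 24 h, and H2BC21 overlaps its controls in lot II.

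After 30 µM zoledronate for 48 h the histone genes were low by a like amount, which is the observation the list was taken from. The median member differed by −0.50, with 34 of 58 genes past the same threshold as lower and none as higher, where 4.29% and 3.1% of all probe sets were; nothing is read from this count. H2BC14 stood at 8.64, 7.67, 8.89 and 8.86 under zoledronate and at 10.21, 10.67, 10.33 and 10.49 in controls, so that every treated array was below every control (−1.91 ± 0.17, SE). H2BC3 (−1.38), H2AC4 (−1.38), H2AC15 (−1.34) and H3C12 (−1.20) followed. H2AC4, an H2A gene, read 9.66, 8.25, 9.72 and 10.19 under zoledronate and 10.86, 11.25, 10.52 and 10.71 in controls, again with no overlap. In the other direction H2AC25, H2BC26, H1-5 and H1-3 had the highest values, of 0.11, 0.09, 0.06 and 0.03, and of 0.19, −0.01, 0.17 and −0.03 without replicate 2, all of them dim. Of all members, 38 members were lower in 4 of 4 pairs, where 10.2% of probe sets were.

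Replicate 2 carried much of the size at 48 h. The median member stood at −0.34, −0.89, −0.35 and −0.29 in the 4 pairs, and the mean of the other 3 pairs was −0.33. Without that pair 25 members were past the threshold, all of them also among the 34. The share of all probe sets without the pair is not given, and nothing is read from this count either. H2BC14 then differed by −1.55, H2AC15 by −1.01, H2BC3 by −0.90, H2AC4 by −0.84, H3C12 by −0.76 and H4C2 by −0.66, against −1.91, −1.34, −1.38, −1.38, −1.20 and −0.95 with it. By type, the medians without the pair were −0.13 for H1, −0.53 for H2A, −0.34 for H2B, −0.26 for H3 and −0.22 for H4, against −0.19, −0.64, −0.44, −0.55 and −0.27 with it. With the 8 arrays of this comparison alone and their own spread, 0 of the 58 were past the threshold in limma. This count too is only a description, as the comparison led to the list.

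**Figure D3:**
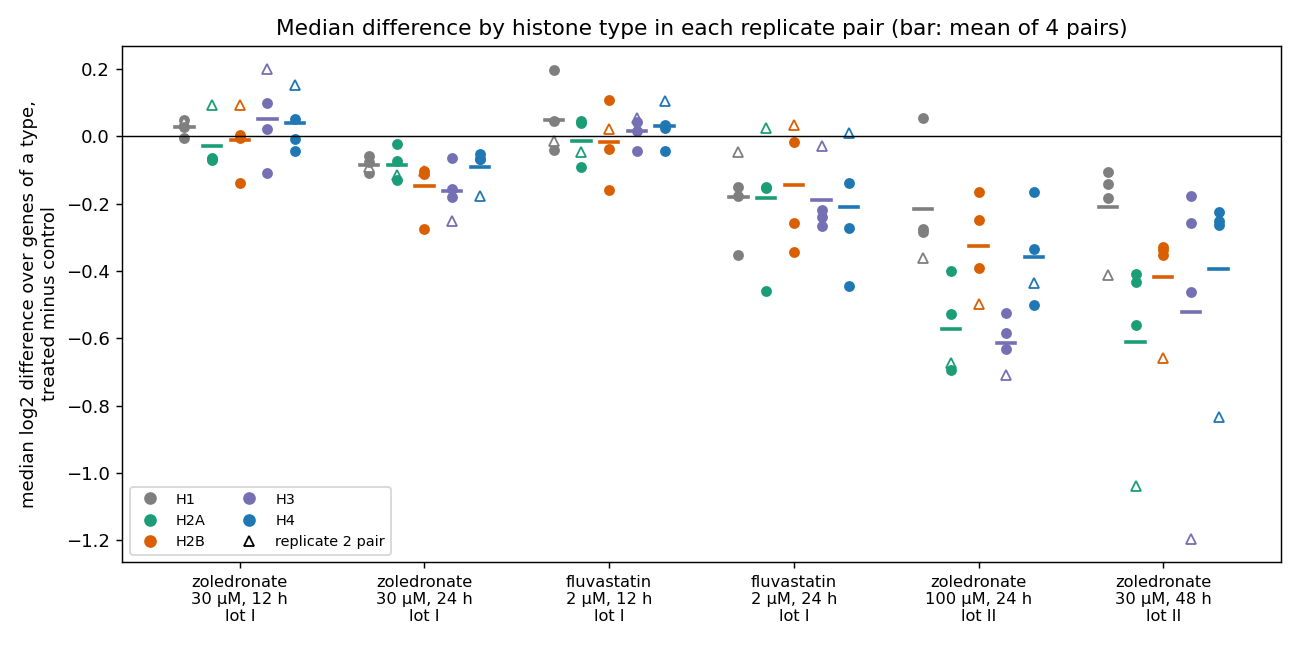
Median log2 difference over the genes of each histone type in every replicate pair, by treated group, with a bar for the mean of 4 pairs and open triangles for the replicate 2 pair. Values scatter about 0 at 12 h, lie mostly below 0 under fluvastatin at 24 h, and lie lowest in lot II, where replicate 2 of the 48 h group reaches −1.19 for H3.

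Fluvastatin at 24 h, measured in lot I, and 100 µM zoledronate, measured in lot II, share no arrays. Across the 57 distinct genes their differences gave Pearson's r = 0.649 and Spearman's rho = 0.671. These are descriptions: both sets of values share probes and brightness, and genes are not independent replicates.

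Under 2 µM fluvastatin for 24 h, 49 of the 58 members had a mean below 0, yet none passed as lower and only H2BC12 passed, as higher. Over all probe sets 3.6% were called lower and 6.57% higher. The median member was −0.18, with −0.37, 0.01, −0.22 and −0.14 in the 4 pairs, so that replicate 2 showed no shift. Of the members 22 were lower in 4 of 4 pairs, against 16.3% of all probe sets, and 19 had an unadjusted p under 0.05, where 24.3% of all probe sets did. The largest fall was that of H2BC14, with 9.76, 9.65, 10.61 and 10.33 under fluvastatin and 10.72, 9.92, 10.83 and 10.75 in controls. Its groups overlapped, but each treated array lay below its own control (−0.47 ± 0.17, adjusted p = 0.091). H4C2 (−0.41, adjusted p = 0.061) and H2BC9 (−0.40, adjusted p = 0.064) came next to the threshold. Without the 48 h replicate 2 pair, which enters the common estimate of variance, 15 members were called lower, and without replicate 2 throughout 18 were, against 0 without replicate 1 or 4. The share of all probe sets called in these refits is not given, so nothing is read from these counts.

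H2BC12 went the other way under fluvastatin. It read 10.02, 9.64, 10.05 and 10.02 in fluvastatin cells and 9.56, 9.35, 9.92 and 9.38 in controls at 24 h, which overlapped as groups while all 4 pairs were higher. The difference was 0.38 ± 0.10 (SE, adjusted p = 0.016), and it was lost without the pairing (adjusted p = 0.15 in limma), with the arrays of the comparison alone (0.10), and without replicate 1 (0.16) or 4 (0.12). A further probe set, which lists H2BC12 together with H2BC12L, H2BC17 and H2BC5, differed by −0.28 ± 0.12 in the same arrays. The rise therefore holds for 1 probe set of this gene.

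At the earlier times and the lower dose no member passed. After 30 µM zoledronate for 12 h the median member was 0.01, 1 member had an unadjusted p under 0.05, and the percentage of all probe sets called was 0%. Lower in 4 of 4 pairs were 3 members, near the 4.56% of all probe sets. After 24 h of the same dose the median was −0.10, with −0.05, −0.11, −0.14 and −0.09 in the pairs, against 0.00011 for all probe sets, of which again 0% were called. Here 51 of 58 means were below 0 and 22 members were lower in 4 of 4 pairs, where 8.02% of probe sets were. H2BC17 had the lowest p there, reading 6.44, 5.97, 6.25 and 6.34 under zoledronate and 7.16, 6.39, 6.82 and 6.43 in controls (−0.45 ± 0.14, adjusted p = 0.96), and H2BC19P, a dim pseudogene, the highest value (0.70, adjusted p = 0.96). Under fluvastatin for 12 h the median was −0.0044 and 2 members had an unadjusted p under 0.05, where 0.514% of all probe sets were called lower and 0.329% higher. Only 1 member was lower in 4 of 4 pairs there, against 10.7%.

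The agents were then set against each other, and the doses of zoledronate. At 12 h no member differed between fluvastatin and 30 µM zoledronate (limma, 1 with an unadjusted p under 0.05), with 0.601% of probe sets called. At 24 h H2BC12 was higher under fluvastatin than under zoledronate by 0.53 ± 0.10 (adjusted p = 0.0029), where 4.17% of all probe sets were called higher and 2.87% lower. This call was lost without replicate 1 (adjusted p = 0.053 in limma), and without replicate 2 the count of 1 became 6. Both agents were compared with the same lot I controls. The effect of 100 µM at 24 h was lower than that of 30 µM at 24 h for 16 members and higher for none, with 10.9% and 9.01% of all probe sets. Among the 16 genes H2BC14 differed most between the doses (−1.22 ± 0.25, adjusted p = 0.00087), followed by H3C12 (−1.09), H2AC12 (−0.97) and H4C2 (−0.86). The doses were given in different lots, so that lot and dose cannot be told apart, and the count moved between 5 and 23 when a replicate was left out; the lower ends came without replicate 3 (5) and replicate 4 (6). It was 6 without the pairing and 31 without the 48 h replicate 2 pair.

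In untreated cells the histone genes differed little with time. Between 12 h and 24 h in lot I, 0 members were called (1 with an unadjusted p under 0.05, and 0% of probe sets called), and the median was −0.0054. Between 24 h and 48 h in lot II, 0 members were called (4 with an unadjusted p under 0.05), with 0.997% of all probe sets called in either direction, and the median was 0.04. The lots themselves differed: at 24 h, H3C3, H4C14 and H4C15 were lower in lot II controls, by 0.27 to 0.28 on the log2 scale, and H2BC3, H2BC26, H3C2 and H2AC1 higher, by 0.32 to 0.63. Those shares, 5.17% and 6.9%, lie near those of all probe sets, of which 10% were lower and 7.37% higher. The 7 calls between lots became 1, 3 and 2 without replicate 2, 3 and 4.

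Most H2A and H2B genes come in pairs that are read away from each other from neighbouring starts, so that partners share 1 short stretch of promoter. In 9 such pairs both genes were members with a RefSeq promoter entry, with 215 to 248 bases between the starts. Members without an entry, such as H2AC12, could not be paired. Under 100 µM zoledronate both partners were called lower in 5 pairs, 1 of them in 3 pairs and neither in the pair H2AC25/H2BC26. H2AC14 and H2BC14 lay furthest apart, at −0.78 and −1.58, and both fell, the H2A gene being a dim one. At 48 h they stood at −0.63 and −1.91, and at −0.56 and −1.55 without replicate 2. In H2AC20/H2BC21 1 partner fell and the other did not pass. H2AC20 read 11.85, 11.74, 11.69 and 11.62 under zoledronate against 12.09, 12.22, 12.15 and 12.37 in controls, and fell without overlap. Its partner H2BC21, with the promoter shown above, overlapped its controls in its single-gene probe set. Probe sets that H2BC21 shares with other genes stood at −0.25 and −0.21. At 48 h this pair stood at −0.54 and −0.08, and at −0.45 and −0.11 without replicate 2.

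**Figure D4:**
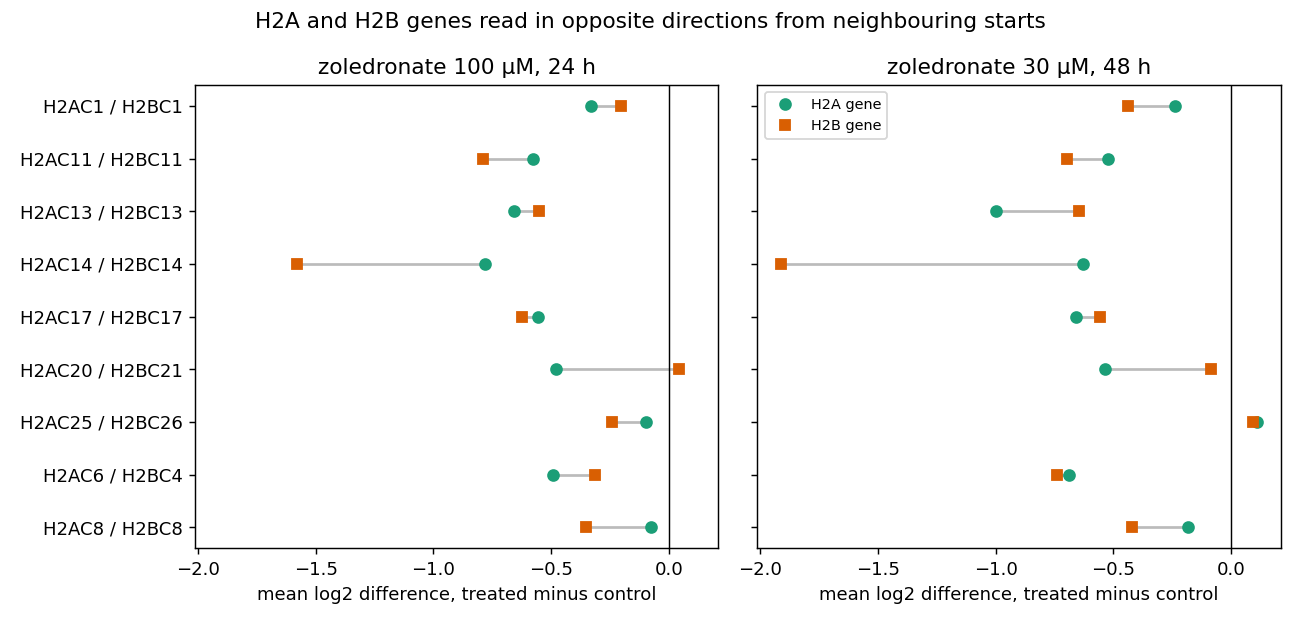
Mean log2 difference, treated minus control, of the H2A gene (circle) and the H2B gene (square) of 9 pairs with neighbouring starts, under 100 µM zoledronate for 24 h (left) and 30 µM for 48 h (right). H2AC14 and H2BC14 lie furthest apart, at −0.78 and −1.58 (left) and at −0.63 and −1.91 (right), and H2AC20 and H2BC21 lie at −0.48 and 0.04 (left) and at −0.54 and −0.08 (right).

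Genes that serve the histone mRNAs were read beside them. Of 23 measured regulators of transcription and 3′ processing, 14 fell and 2 rose under 100 µM zoledronate, with a median of −0.31, where 16.4% of all probe sets were called lower and 15.2% higher. CDC25A, a phosphatase that lets cells enter S phase, fell by 1.35 ± 0.18 (adjusted p = 3e-06), and CSTF2, of the cleavage complex, and ERI1 by 0.50 and 0.49. NPAT (−0.28, adjusted p = 0.0012), SLBP (−0.36, adjusted p = 0.0051) and E2F1 (−0.41, adjusted p = 0.0018) fell less, while CASP8AP2, a component of the histone bodies (−0.11), and CCNE2, a cyclin that drives entry into S phase (−0.58, adjusted p = 0.084), did not pass. HINFP, an activator of H4 genes, and TUT7, a terminal uridylyl transferase, rose by 0.34 and 0.50. Under fluvastatin for 24 h UPF1, ERI1 and CSTF2 fell by 0.26, 0.24 and 0.22 on the log2 scale and TUT7 rose by 0.44, among 4 lower and 1 higher of the 23, where 3.6% of all probe sets were called lower and 6.57% higher. After 48 h at 30 µM, ERI1 (−0.38), ZNF473 (−0.27) and CPSF3 (−0.20) were past the threshold as lower, where 4.29% of all probe sets were, while SLBP stood at 0.02 and NPAT at −0.10. Without replicate 2 ERI1 stood at −0.33, ZNF473 at −0.24, CPSF3 at −0.27, SLBP at 0.09 and NPAT at −0.09.

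Histone chaperones, which carry new histones to the DNA, fell in 9 of 20 and rose in 2 of 20 cases under 100 µM zoledronate, against 16.4% lower and 15.2% higher over all probe sets. NASP, which holds a reserve of H3 and H4, fell by 0.70 ± 0.11 (adjusted p = 2.1e-05), and HAT1, which acetylates new H4, by 0.52. UBN1 and ATRX, which serve the replication-independent H3.3 route, rose by 0.55 and 0.24. At 48 h 0 of the 20 passed in limma, 5 with an unadjusted p under 0.05, and 1 passed, as higher, without replicate 2. Of 9 measured genes listed as replacement histones H2AZ1 and H2AX fell under 100 µM (−0.46 and −0.44), where 16.4% of all probe sets were called lower. H3-3B stood at −0.14 (adjusted p = 0.075).

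The S phase genes, such as those of the MCM helicase, moved with the histone genes in some groups. Of 35 measured, 30 fell under 100 µM zoledronate, with a median of −0.57 and pair medians of −0.46, −0.56, −0.57 and −0.74, where 16.4% of all probe sets were called lower. Under fluvastatin for 24 h 6 of them fell, MCM2, MCM7 and CDT1 among these, with a median of −0.29, where 3.6% of all probe sets were called lower. At 48 h all 35 had a mean over the 4 pairs below 0, and 2 were past the threshold as lower, where 4.29% of all probe sets were. These were MCM6 (−0.44, and −0.41 without pair 2) and MCM5 (−0.39, and −0.18 without it). The pairs at 48 h disagreed: the S phase median was −0.12, −0.94, 0.16 and 0.25, where the histone median was −0.34, −0.89, −0.35 and −0.29. Without pair 2 the S phase mean was thus 0.10 and the histone mean −0.33. Both lists were lowest in pair 2, and in pairs 3 and 4 the histone genes were below and the S phase genes above their controls. Against each gene's mean over all arrays, the S phase median stood at −0.11 and 0.05 in the treated arrays of pairs 3 and 4 and at −0.26 and −0.18 in their controls, which were themselves low. In lot II controls the S phase median at 48 h minus 24 h was −0.26, with 33 of 35 genes below 0, 0 called in limma and 23 with an unadjusted p under 0.05. The part of the share of S phase cells in the histone values was not tested.

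**Figure D5:**
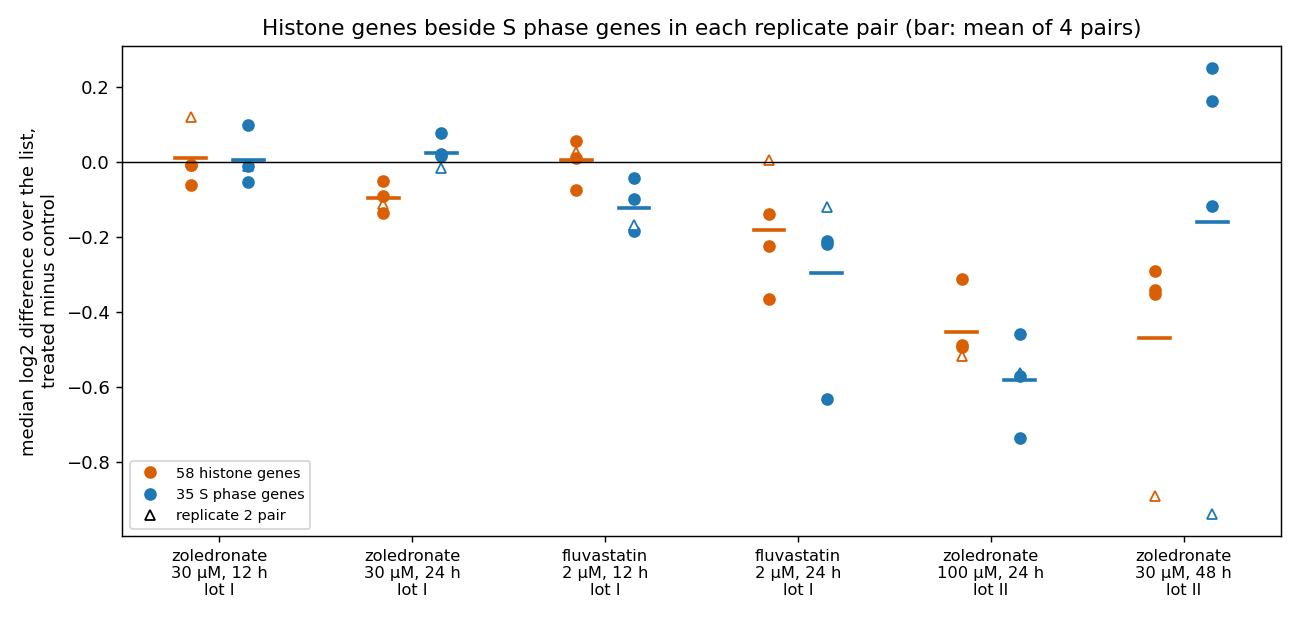
Median log2 difference, treated minus control, of the 58 histone genes (orange) and of 35 S phase genes (blue) in each replicate pair of the 6 treated groups, with a bar for the mean of 4 pairs and open triangles for the replicate 2 pair. The lists lie low together under 100 µM zoledronate, whereas at 48 h 2 of the S phase pair medians lie above 0 and all histone ones below.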

How the data were processed

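RNA of 40 MDA-MB-231 cultures was converted to cDNA with random primers and hybridised to a whole-transcript array. The deposited values are log2 RMA signals, made by the authors with Affymetrix Power Tools 1.10.2, per the submitters' processing notes. The genome build is not given in the sources used here, nor is whether RMA was run on both lots at once. No detection call comes with them. Percentiles over probe sets, which also depend on each probe's response, serve only for the marker check and to name dim members. Of 33297 probe sets, 19460 list 1 gene symbol and were tested, 1754 list several and 12083 are unnamed.

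Groups were taken from the sample labels, and the design text states that pairing removed the day of measurement. limma 3.58.1 (R 4.3.3) fitted 16 blocks of lot, time and replicate and 6 treatment effects (18 residual degrees of freedom). Controls were compared in a fit without blocks (12 residual degrees of freedom). Benjamini-Hochberg adjustment ran over all 19460 probe sets, with a threshold of 0.05. The fit was also run on simulated data with independent noise and no shared day effect, which cannot test the pairing. Same-numbered arrays of lot I deviated together (r of 0.17 to 0.601); in lot II r was −0.288 to 0.545, over 0.1 in 3 of 8 cases, so the pairing there rests on the design text. In the fit of treatments, p-values rest on the spread of these cultures left after the blocks, pooled over all 40 arrays. In both fits limma moderated the spread across probe sets.

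The histone genes, the lists of regulators, chaperones, replacement histones and S phase genes, and the tests were chosen with earlier results of these data known. Named are up to 4 called members per direction with the smallest adjusted p, or at 48 h the largest differences. The member of each type with the largest mean change, all H1 genes, and germ cell and polyadenylated forms are named too. From the lists come SLBP, NPAT and further genes by role, and some, not all, of the called genes, up to 3 per direction. H4C6, H4C9, H2BC9, H2BC17, H2BC19P and the partners in gene pairs were picked with their values in view. The alternatives tried were no pairing, other normalizations, no dim probe sets, the brightest probe set of a gene, the arrays of 1 comparison alone, an intensity trend, and leaving out each replicate or the 48 h replicate 2 pair. Promoters came from RefSeq (GRCh38.p14); H2AC12, H2BC19P, H3C11, H3C12, H4C1 and H4C3 had no entry.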

Additional observations from a re-analysis of the deposited data

Results flagged for a closer look

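Within 210 sets of 4 replicate pairs, 21 had 1 pair far from the other 3, where chance gives about 1 in 20. In the 48 h group the distant pair was always replicate 2. There the median member stood at −0.89, the median H2B gene at −0.66 and the median H4 gene at −0.83. Single genes in this pair were H2BC14 at −3.00, H2BC3 at −2.83, H2AC15 at −2.33, H4C2 at −1.80 and H3C3 at −1.24. H2AC25 (−0.14) and H2BC5 (0.14) stood apart in it too, at small differences.

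The other distant pairs were scattered. Under 100 µM zoledronate the median member was least low in pair 1 (−0.31). Under 30 µM zoledronate for 12 h the median H2A gene was 0.093 in pair 2. After 24 h of that dose the median H2B gene was −0.27 in pair 3 and the median H4 gene −0.18 in pair 2. Pair 1 of that group held H3C12 at 0.29, H3C2 at 0.13 and H4C14 and H4C15 at −0.043. Under fluvastatin for 24 h, H1-2 stood at −0.54 in pair 1, while H2BC21 stood at 0.41 and H3C3 at 0.010 in pair 2.

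Some effects differed between agents or doses in the limma test of the difference itself. H2BC12 was higher under fluvastatin than under 30 µM zoledronate at 24 h by 0.53. The effect of 100 µM zoledronate was below that of 30 µM at 24 h for H2BC14 (−1.22), H3C12 (−1.09), H2AC12 (−0.97), H4C2 (−0.86), H2AC15 (−0.77), H4C14 and H4C15 (−0.57), H4C8 (−0.52), H2AC6 (−0.41) and H2AC20 (−0.39). These doses lie in different lots, and lot and dose cannot be told apart.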

How the results depend on the processing

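Of 274 counts and medians recomputed under the alternatives, 250 stayed within the spread or within 1.5 times the reported count, 24 moved and 0 reversed. Under 100 µM zoledronate the count of 39 lay between 33 and 42, and its median was −0.57 with dim probe sets left out. The fluvastatin count at 24 h (1) was least stable: 0 without the replicate block and with its own arrays alone (10 and 22 members with an unadjusted p under 0.05 in limma), 3 after quantile normalization anew, 4 without dim probe sets, 5 with an intensity trend and 16 without the 48 h replicate 2 pair. Leaving out 1 replicate gave 0 to 19, the highest without replicate 2. At 48 h the count of 34 was 25 without the replicate block, 24 to 32 with 1 replicate left out and 0 with its own arrays alone. The count for the difference between fluvastatin and 30 µM zoledronate at 24 h (1) was 2 without the 48 h pair and 0 to 6 with 1 replicate left out. The count for 100 µM against 30 µM (16) was 6 without the replicate block, 29 with its own arrays and 31 without the 48 h pair, and 5 to 23 with 1 replicate left out. Between control times in lot II it was 0 to 1, and between lots (7) it was 3 with group means of all 40 arrays and 1 to 9 with 1 replicate left out. The causes of these shifts were not tested. Shares of all probe sets called under the alternatives are not given, so nothing about the members is read from the shifts. Signal close to background limits what the 20 dim members can show.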

Other observations

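A further 20 probe sets list several symbols of which at least 1 is a histone gene, and they stand outside the comparisons above. Some repeat the values of another, so that 17 signals are distinct. Over these 17 the median difference was −0.39 under 100 µM zoledronate, with 16 below 0. Under 30 µM for 48 h it was −0.46, with 15 below 0, and −0.28, with 14 below 0, without replicate 2. The probe set shared by H2BC12, H2BC12L, H2BC17 and H2BC5 differed by −0.54 under 100 µM and by −0.73 at 48 h (−0.52 without replicate 2). The one for H2BC12 alone differed by −0.30 and −0.23 (−0.16 without replicate 2).

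H2BC21 is also covered by shared probe sets. The one shared with H2BC19P and H2BC20P differed by −0.21 under 100 µM zoledronate and by −0.41 at 48 h (−0.26 without replicate 2). The one shared with H2BC18 and H2BP1 differed by −0.25 and −0.29 (−0.41 without replicate 2). The probe set of H2BC21 alone differed by 0.04 and −0.08 (−0.11 without replicate 2). H4C14 and H4C15 went apart between probe sets as well: the shared one differed by 0.13 under 100 µM and by 0.25 at 48 h (0.06 without replicate 2), whereas the single-gene ones fell by 0.80 under 100 µM.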
